A study of Homo sapiens with 15 samples.

Results

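The genes described here are 10 Wnt antagonists and Wnt target genes taken from a list: DKK1, DKK2, DKK3, SFRP1, WNT5A, LGR5, LEF1, TCF7, AXIN2 and NKD1. They are 10 of the 57820 gene identifiers in a table of RNA-seq read counts, and they were found by symbol. The rule itself uses no measured value, but the list was chosen with earlier results of these data known. All 10 passed a filter of 1 count per library on average. The counts come from A673, an Ewing sarcoma cell line whose EWS/FLI fusion joins the amino-terminal part of EWS to the DNA-binding part of the transcription factor FLI1.

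Every condition received a retroviral shRNA on day 1 and a retroviral cDNA on day 5, and was kept under selection until day 16, first in puromycin at 2 µg/mL and then also in hygromycin at 400 µg/mL. iLuc cells received an shRNA against luciferase with an empty cDNA vector and so kept their own EWS/FLI. iEF cells received an shRNA against EWS/FLI with the empty vector. WT-EF, Δ22 and DAF cells received that same shRNA followed by a cDNA for wildtype EWS/FLI, for a form that lacks nearly all of the EWS domain, or for a form whose EWS domain carries tyrosine to alanine substitutions. All cDNAs came from retroviral vectors with an amino-terminal tag, so none was driven from the promoter of the endogenous gene. The design asks which of these genes follow EWS/FLI, and whether each cDNA returns them from their level in depleted cells towards that in iLuc cells. There were 3 libraries for each condition, all from 1 cell line. The labels give replicate numbers but do not say that the libraries came from separate cultures, and p-values measure only the spread between these libraries.

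Total counts per library ran from 28659475 to 41859880. FLI1 reads, which come from the fusion as well as from FLI1 itself and do not tell an endogenous transcript from an introduced one, averaged 49.4 ± 2.62 CPM (counts scaled to a common library size) in iLuc cells (SD, n = 3) and 14.6 ± 1.44 CPM in iEF cells (SD, n = 3), a log2 fold change of 1.77 ± 0.10 (SE) with an adjusted p of 7.9e-09. FLI1 was higher than in iEF by 1.09 in Δ22 cells (adjusted p = 0.000446) and by 0.74 in DAF cells (adjusted p = 0.000335) on the log2 scale. In WT-EF cells the difference was 0.27 with an adjusted p of 0.0538. Without Δ22 replicate 1 that adjusted p was 0.0362. FLI1 was lower in WT-EF than in DAF (log2 -0.47 ± 0.10, adjusted p = 0.00264) and than in iLuc (-1.49 ± 0.10, adjusted p = 6.2e-07). The part of FLI1 levels in the comparisons of these conditions below was not tested. The summed level of 4 Ewing sarcoma markers (CD99, NKX2-2, NR0B1 and FLI1) was 106.3 to 114.9 CPM in iLuc libraries, 17.8 to 25.2 in iEF, 60.5 to 80.8 in WT-EF, 29.1 to 55.5 in Δ22 and 38.6 to 72.4 in DAF. CD99 was listed at or near 0 in all libraries, at most 0.0782 CPM. The sum includes FLI1, whose reads can include the cDNA, at 12.9 to 15.5 CPM in iEF, 24.4 to 36.2 in Δ22 and 22.1 to 27.3 in DAF. NKX2-2 was at 4.31 to 5.89 CPM in iLuc, 0.872 to 1.01 in iEF and 2.14 to 2.69 in WT-EF. In Δ22 it was at 0.572 to 1.055 CPM and in DAF at 0.738 to 1.27. NR0B1 was at 49.8 to 61.2 CPM in iLuc, 3.94 to 8.67 in iEF and 42.2 to 59.4 in WT-EF. In Δ22 it was at 3.60 to 18.7 CPM and in DAF at 15.7 to 44.4. Summed epithelial markers were between 0.402 and 1.16 CPM over all libraries, but single markers differed in opposite directions. EPCAM was at 0.642 to 0.985 CPM in iLuc and 0.0788 to 0.145 in iEF. KRT14 was at most at 0.0895 CPM in iLuc and at 0.304 to 0.972 in iEF. The sum of the 3 endothelial markers found was between 0.196 and 0.976 CPM. Summed haematopoietic markers were at 0.397 to 1.01 CPM in iLuc, 0.555 to 0.932 in WT-EF, 1.58 to 2.12 in iEF, 0.879 to 3.29 in Δ22 and 1.79 to 4.69 in DAF. Of these, CD14 was at 1.48 to 3.69 CPM in DAF and at most 0.119 in iLuc, and CD3E was at most at 0.0357 CPM in any library. Their part in the differences below was not tested. In bulk RNA, fewer cells that express a gene and less RNA per cell cannot be told apart.

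Wnt ligands are secreted proteins that bind Frizzled receptors and, in the canonical branch, the co-receptors LRP5 and LRP6. Binding stops the destruction complex that otherwise degrades beta-catenin, and beta-catenin then enters the nucleus and works with the TCF/LEF family of DNA-binding proteins. The pathway is bounded by secreted inhibitors, among them the Dickkopf (DKK) and secreted Frizzled-related (SFRP) proteins, and by target genes such as AXIN2 and NKD1 whose products feed back on the signal. R-spondins act through LGR receptors to keep Frizzled proteins on the cell surface. EWS/FLI itself binds DNA through the ETS domain of FLI1, whose core motif is GGAA, and it also binds microsatellites made of GGAA repeats.

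Sequence around these genes was searched for GGAA and for TCF/LEF motifs, since both bear on which factor could act there. Promoter sequences, taken as the 250 bases before the transcription start in the RefSeq table of GRCh38.p14, were found for DKK1, LEF1, TCF7 and WNT5A. The DKK1 and LEF1 promoters are shown for the inhibitor with a wide range between conditions and for a TCF/LEF factor. They lie at chr10:52314031-52314280 on the plus strand and chr4:108166302-108166551 on the minus strand, and capitals mark GGAA on either strand (TTCC on the strand shown) and the TCF/LEF motif CTTTGAA.
DKK1 promoter: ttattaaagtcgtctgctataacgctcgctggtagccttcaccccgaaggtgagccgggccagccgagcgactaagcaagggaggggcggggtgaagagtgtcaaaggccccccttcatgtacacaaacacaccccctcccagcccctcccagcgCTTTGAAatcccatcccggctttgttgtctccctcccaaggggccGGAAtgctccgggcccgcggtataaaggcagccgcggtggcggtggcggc
LEF1 promoter: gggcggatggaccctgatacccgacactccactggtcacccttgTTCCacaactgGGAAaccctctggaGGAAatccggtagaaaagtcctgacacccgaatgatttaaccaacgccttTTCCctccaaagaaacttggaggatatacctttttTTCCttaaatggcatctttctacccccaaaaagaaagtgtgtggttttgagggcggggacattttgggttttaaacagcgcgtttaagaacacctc

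The DKK1 promoter held 1 GGAA and 1 CTTTGAA, and the LEF1 promoter held 5 GGAA. The TCF7 and WNT5A promoters held 4 and 3 GGAA. Single GGAA motifs occurred in 92.8% of 27305 promoters of the same length on either strand, CTTTGAA in 3.88% and CTTTGAT in 2.28%, so that a GGAA match is the usual state of a promoter. None of the 4 promoters held CTTTGAT or the tandem GGAAGGAA, which 2.99% of promoters held. GGAA and GGAAGGAA overlap each other.

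Longer runs of GGAA were searched in GRCh37, the build of the counts, within 100000 bases of the start of the canonical transcript of each gene. Runs of at least 4 repeats were found near 6 of the 10 genes (DKK2, WNT5A, AXIN2, LGR5, SFRP1 and NKD1) and none within 5000 bases of any start. Over 15986 genes, 54.6% had such a run in the wider window and 3.32% had one within 5000 bases. The 4 genes without a run were DKK1, DKK3, LEF1 and TCF7. The run nearest to DKK2 had 5 repeats and lay at chr4:108007524-108007543, inside the annotated span of the gene and at a distance of -50063 bases (negative is upstream) from the start of its canonical transcript at 107957470. The longest run near WNT5A had 12 repeats and a distance of -96263 bases, at chr3:55617574-55617621. They are shown, with 20 bases on either side and the run in capitals, for a gene that was high with EWS/FLI and for one that was low with the wildtype cDNA. Both are read on the plus strand.
DKK2 run: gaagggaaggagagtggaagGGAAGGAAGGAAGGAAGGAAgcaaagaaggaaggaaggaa
WNT5A run: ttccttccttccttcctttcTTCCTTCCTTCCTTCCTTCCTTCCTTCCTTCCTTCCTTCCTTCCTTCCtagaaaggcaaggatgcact

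Runs of at least 5 repeats were present in the same window of 39.8% of genes and runs of at least 12 in 13.5%. The longest run near any of the 10 genes was that of AXIN2, with 13 repeats and a distance of -98841 bases. Runs of at least 13 repeats were present in 10.4% of genes. AXIN2 had 7 runs in the window, where the median over genes was 1. The nearest run to SFRP1 had 6 repeats and a distance of -12936 bases. A match of letters is a description and not a binding site.

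Among the 10 genes, the DKK family and SFRP1 had the widest differences between conditions. DKK1, DKK3 and SFRP1 were low in cells with their own EWS/FLI and high after its depletion, and DKK2 had the opposite order. The wildtype cDNA moved all 4 towards the iLuc level and DAF moved 3 of them a shorter way. No member passed the test in Δ22 cells in the fit reported, and DKK2 did not pass it between DAF and Δ22. The ligand WNT5A, the receptor LGR5, the TCF/LEF genes LEF1 and TCF7 and the feedback gene AXIN2 passed the test in some comparisons with smaller differences, whose direction differed from gene to gene, and NKD1 passed in none.

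**Figure D1:**
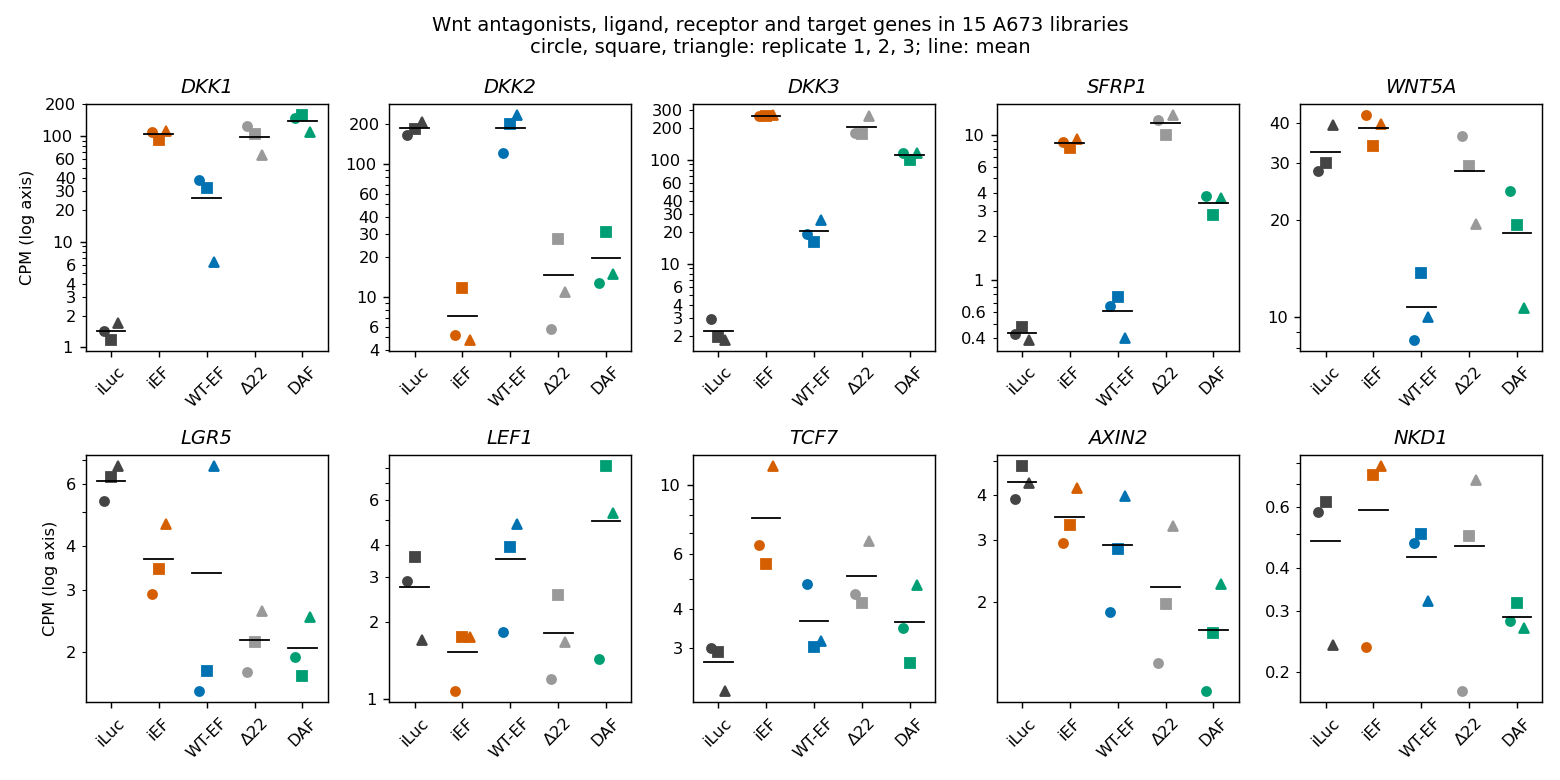
CPM (counts scaled to a common library size) of each of the 10 genes in the 15 libraries, on log axes that differ between panels; circles, squares and triangles are replicates 1, 2 and 3, and the line is the mean of 3. DKK1, DKK3 and SFRP1 are lowest in iLuc and high in iEF and Δ22, DKK2 is high in iLuc and WT-EF, and WNT5A is lowest in WT-EF.

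DKK1 lies at chr10:54074041-54077802 (GRCh37) and encodes a secreted inhibitor that binds LRP6 and blocks canonical Wnt signalling. In iLuc cells DKK1 was at 1.44, 1.18 and 1.70 CPM in replicates 1, 2 and 3, which were 47, 42 and 57 counts. In iEF cells it was at 108.7, 90.7 and 110.9 CPM. In WT-EF cells it was at 38.4, 32.0 and 6.39 CPM. The iLuc libraries were thus far below the iEF libraries, and the WT-EF libraries lay between with no overlap on either side, with replicate 3 the lowest of them. In Δ22 cells DKK1 was at 123.9, 104.6 and 65.4 CPM and in DAF cells at 146.4, 157.6 and 108.2 CPM. Both groups overlapped with iEF.

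DKK1 was 73.7-fold lower in iLuc than in iEF, a log2 fold change of -6.20 ± 0.47 (SE, adjusted p = 9.5e-08). In WT-EF it was 4.59-fold lower than in iEF (log2 -2.20 ± 0.37, adjusted p = 0.000385), and it stayed 16.0-fold above iLuc (log2 4.004 ± 0.45, adjusted p = 4.03e-05). Within the sets of libraries with the same number, the WT-EF difference from iEF was -1.50, -1.50 and -4.10. Without replicate 3 of all conditions the fitted WT-EF difference was -1.51. The difference of WT-EF from iLuc was 4.65, 4.65 and 1.85 within those sets, and 4.76 when replicate 3 of all conditions was left out. The differences of Δ22 (log2 -0.17 ± 0.35, adjusted p = 0.905) and DAF (log2 0.35 ± 0.35, adjusted p = 0.62) from iEF did not pass the test. Without replicate 3 of all conditions the DAF difference was 0.63 with an adjusted p of 0.00146. DKK1 was 5.87-fold lower in WT-EF than in DAF (log2 -2.55 ± 0.37, adjusted p = 0.000146).

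DKK3, at chr11:11977754-12031316, encodes a secreted glycoprotein that is the most divergent of the DKK family. In iLuc cells DKK3 was at 2.97, 1.99 and 1.85 CPM. In iEF cells it was at 263.8, 262.6 and 268.8 CPM. In WT-EF cells it was at 19.4, 16.1 and 26.4 CPM. These 3 conditions did not overlap, and the iEF libraries were close to each other. In Δ22 cells DKK3 was at 179.4, 177.9 and 259.8 CPM, all below iEF, with replicate 3 near it. In DAF cells it was at 115.3, 98.2 and 115.2 CPM, which lay below every Δ22 library and above every WT-EF library. The order from low to high was therefore iLuc, WT-EF, DAF, Δ22 and iEF.

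The log2 fold change of DKK3 against iEF was -6.87 ± 0.20 in iLuc (117.1-fold lower, adjusted p = 1.04e-10), -3.71 ± 0.17 in WT-EF (13.1-fold lower, adjusted p = 9.8e-09) and -1.28 ± 0.15 in DAF (2.43-fold lower, adjusted p = 0.000124). The Δ22 difference of -0.39 ± 0.15 had an adjusted p of 0.256, and without replicate 3 of all conditions it was -0.56 with an adjusted p of 0.0139. DKK3 stayed 8.97-fold higher in WT-EF than in iLuc (log2 3.17 ± 0.18, adjusted p = 1.47e-07), was 5.37-fold lower in WT-EF than in DAF (adjusted p = 5.9e-07) and was 1.86-fold lower in DAF than in Δ22 (log2 -0.90 ± 0.15, adjusted p = 0.00771). The last call was lost without DAF replicate 2 (adjusted p = 0.0600), DAF replicate 3 (0.0752), Δ22 replicate 3 (0.0519) or replicate 2 of all conditions (0.181). With limma on the ComBat-adjusted values the adjusted p was 0.415 for that difference and 0.0577 for DAF against iEF. DKK3 overlaps USP47 on the opposite strand, which was at up to 298.1 CPM, and the strand setting of the counting is not known.

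SFRP1, on chromosome 8 (41119481 to 41166992), encodes a secreted protein that binds Wnt ligands through a Frizzled-like domain. In iLuc cells SFRP1 was at 0.428, 0.477 and 0.388 CPM, which were 14, 17 and 13 counts. In iEF cells it was at 8.91, 8.16 and 9.36 CPM. In WT-EF cells it was at 0.665, 0.766 and 0.399 CPM, which overlapped with iLuc and lay far below iEF. In Δ22 cells SFRP1 was at 12.7, 9.88 and 13.7 CPM, all above iEF, and in DAF cells at 3.76, 2.82 and 3.66 CPM, all below iEF and above WT-EF.

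The log2 fold change of SFRP1 against iEF was -4.34 ± 0.24 in iLuc (20.2-fold lower, adjusted p = 5e-09), -3.84 ± 0.23 in WT-EF (14.3-fold lower, adjusted p = 5.9e-08) and -1.37 ± 0.19 in DAF (2.59-fold lower, adjusted p = 0.000392). In Δ22 it was 0.45 ± 0.18 with an adjusted p of 0.284. WT-EF and iLuc differed by 0.50 ± 0.28 with an adjusted p of 0.245, which was 0.0345 without WT-EF replicate 3. SFRP1 was 3.54-fold lower in DAF than in Δ22 (log2 -1.82 ± 0.19, adjusted p = 0.000337) and 5.52-fold lower in WT-EF than in DAF (adjusted p = 4.6e-06).

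DKK2, at chr4:107842959-108204963, encodes a secreted LRP6-binding protein that inhibits or activates the pathway depending on its co-receptors. In iLuc cells DKK2 was at 165.3, 183.2 and 207.5 CPM. In iEF cells it was at 5.23, 11.7 and 4.80 CPM. In WT-EF cells it was at 121.7, 201.4 and 233.8 CPM. The iLuc and WT-EF libraries overlapped, and all 6 were far above iEF. In Δ22 cells DKK2 was at 5.80, 27.2 and 11.04 CPM, which overlapped with iEF, and in DAF cells at 12.9, 30.8 and 15.1 CPM, all above iEF. Replicate 2 was the highest library in iEF, Δ22 and DAF.

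DKK2 was 28.3-fold higher in iLuc than in iEF (log2 4.82 ± 0.35, adjusted p = 5.9e-08) and 27.1-fold higher in WT-EF (log2 4.76 ± 0.35, adjusted p = 2.6e-07). WT-EF and iLuc differed by -0.06 ± 0.29 on the log2 scale (adjusted p = 0.929). In DAF cells DKK2 was 2.70-fold above iEF (log2 1.43 ± 0.32, adjusted p = 0.00908), with within-set differences of 1.29, 1.39 and 1.63. The DAF call was lost without DAF replicate 2 (adjusted p = 0.0551), without iEF replicate 3 (0.0518) and without the replicate block (0.0790). In Δ22 cells the difference was 0.92 ± 0.32 (adjusted p = 0.189). With no filter on low counts edgeR called this Δ22 difference (log2 0.93, adjusted p = 5.4e-06). DKK2 was 10.1-fold higher in WT-EF than in DAF (log2 3.33 ± 0.32, adjusted p = 6.1e-06), and DAF and Δ22 differed by 0.51 ± 0.31 (adjusted p = 0.656). The difference of DAF from Δ22 passed with no filter on low counts (adjusted p = 0.0367) and with only the 6 libraries compared (0.00204).

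The size of the largest changes depended on the values used, and each of the differences that follow kept its direction and its call. With limma on the ComBat-adjusted values and a pseudocount of 0.5, the iLuc difference from iEF on the log2 scale was -3.30 for DKK1, -4.03 for DKK3, -2.51 for SFRP1 and 3.75 for DKK2. The WT-EF difference from iEF was -1.55, -2.89, -2.35 and 3.73 for the same genes in the same order. Against iLuc, WT-EF was higher by 1.75 for DKK1 and 1.15 for DKK3, and against DAF it differed by -1.79 for DKK3, -1.29 for SFRP1 and 2.72 for DKK2.

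**Figure D2:**
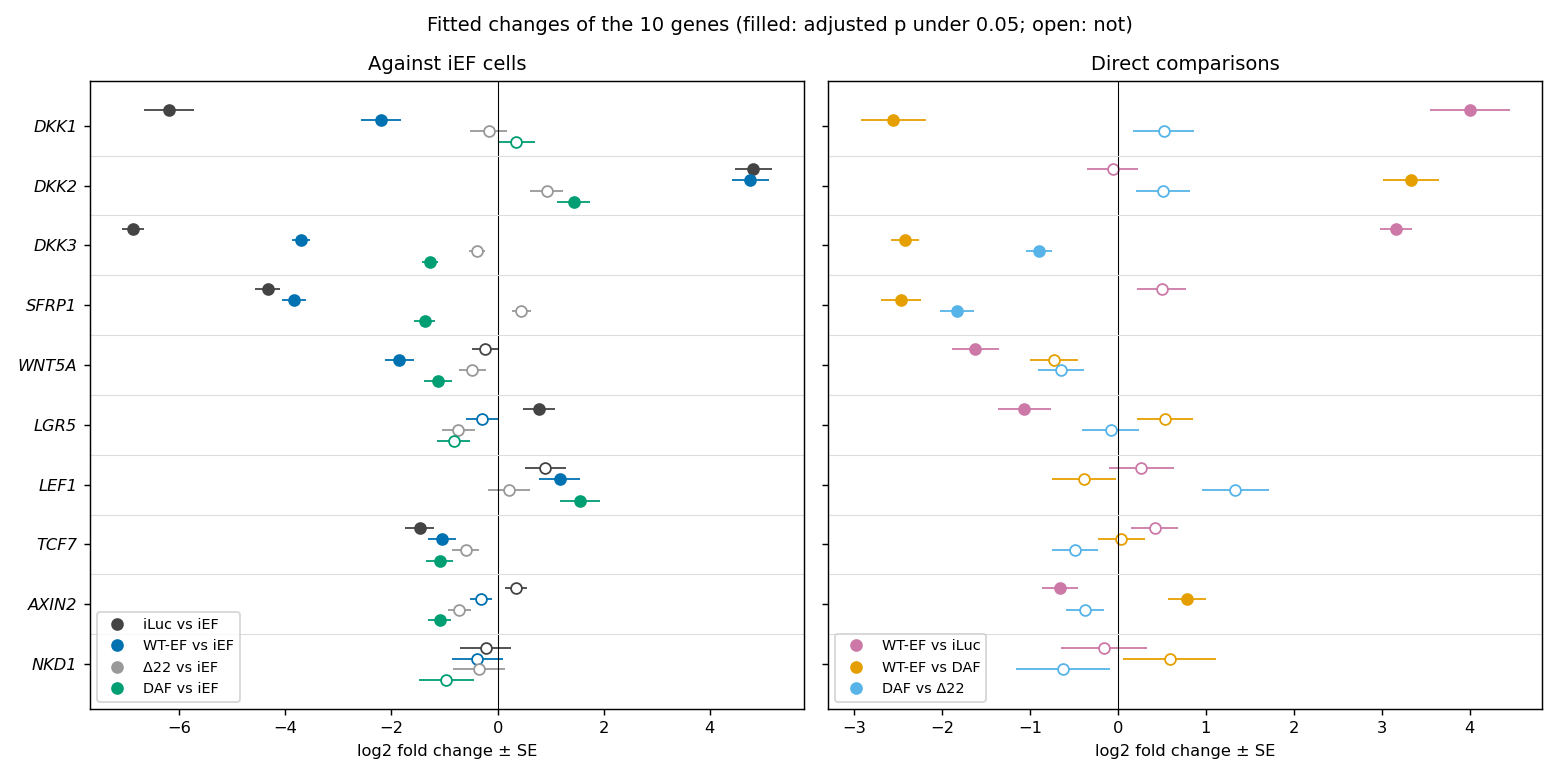
Fitted log2 fold changes with their SE for the 10 genes, against iEF on the left and between other conditions on the right; filled points passed an adjusted p of 0.05 and open points did not. DKK1, DKK2, DKK3 and SFRP1 span the widest ranges, the 4 comparisons on the left share the iEF libraries, and all Δ22 points are open.

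WNT5A, at chr3:55499743-55524567, encodes a ligand best known for signalling without beta-catenin. It differed from the inhibitors in that iLuc and iEF libraries overlapped, at 28.4, 30.01 and 39.4 CPM in iLuc and 42.4, 33.9 and 39.9 CPM in iEF. In WT-EF cells WNT5A was at 8.50, 13.7 and 10.04 CPM, below every library of those groups. In Δ22 cells it was at 36.5, 29.5 and 19.4 CPM, and in DAF cells at 24.7, 19.3 and 10.7 CPM. The DAF libraries lay below iEF and reached the WT-EF range in replicate 3.

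Against iEF, WNT5A was 3.61-fold lower in WT-EF (log2 -1.85 ± 0.27, adjusted p = 0.000106) and 2.18-fold lower in DAF (log2 -1.12 ± 0.26, adjusted p = 0.0129). It was also 3.07-fold lower in WT-EF than in iLuc (log2 -1.62 ± 0.27, adjusted p = 0.000738), whereas iLuc and iEF differed by -0.23 ± 0.26 (adjusted p = 0.519) and Δ22 and iEF by -0.47 ± 0.26 (adjusted p = 0.471). The DAF call was lost without DAF replicate 3 (adjusted p = 0.0853), iEF replicate 1 (0.0549), iEF replicate 3 (0.0578) or replicate 2 of all conditions (0.0918). WT-EF and DAF differed by -0.73 ± 0.27 with an adjusted p of 0.0570. That difference passed without DAF replicate 3 (adjusted p = 0.0125), WT-EF replicate 2 (0.0402), Δ22 replicate 1 (0.0458), Δ22 replicate 3 (0.0393), iLuc replicate 3 (0.0331) or replicate 3 of all conditions (0.00171), with DESeq2 (0.0391) and with no filter on low counts (9.7e-05).

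LGR5, at chr12:71833578-71980090, encodes a receptor for R-spondins and is a canonical target gene in several tissues. In iLuc cells LGR5 was at 5.35, 6.26 and 6.72 CPM and in iEF cells at 2.92, 3.44 and 4.62 CPM, without overlap. In WT-EF cells it was at 1.55, 1.77 and 6.71 CPM, so that replicate 3 was at the iLuc level and the other libraries were below iEF. In Δ22 cells it was at 1.76, 2.14 and 2.61 CPM and in DAF cells at 1.93, 1.71 and 2.52 CPM, all below iEF.

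LGR5 was 1.71-fold higher in iLuc than in iEF (log2 0.78 ± 0.30, adjusted p = 0.0497). This call was lost in 11 of the 15 fits that left out 1 library (any DAF, Δ22 or iEF library, iLuc replicate 1 or 2), with adjusted p between 0.0549 and 0.180, and it was 0.174 without the replicate block. WT-EF did not pass against iEF (log2 -0.29 ± 0.31, adjusted p = 0.55), but without WT-EF replicate 3 the difference was -0.98 (adjusted p = 0.00137). Without that library Δ22 (adjusted p = 0.0222) and DAF (0.00311) also passed against iEF. The reported differences were -0.74 ± 0.31 in Δ22 and -0.82 ± 0.31 in DAF, with adjusted p of 0.302 and 0.116. DAF also passed with no filter on low counts (adjusted p = 0.0171), only the 6 libraries compared (0.0169) or without replicate 3 of all conditions (0.0361). LGR5 was 2.09-fold lower in WT-EF than in iLuc (log2 -1.06 ± 0.30, adjusted p = 0.0230). That call was lost without WT-EF replicate 1 (adjusted p = 0.130) or 2 (0.137), iLuc replicate 1 (0.0806) or 2 (0.0961) and the replicate block (0.180), and the difference was -1.74 without WT-EF replicate 3.

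LEF1 and TCF7 encode DNA-binding partners of beta-catenin, and their own genes are canonical targets. LEF1 (chr4:108968701-109090112) was at 2.90, 3.59 and 1.70 CPM in iLuc, 1.08, 1.75 and 1.75 in iEF, 1.83, 3.91 and 4.85 in WT-EF, 1.20, 2.56 and 1.68 in Δ22 and 1.44, 8.10 and 5.33 in DAF. The WT-EF libraries were all above iEF, while in DAF replicate 1 was within the iEF range and replicates 2 and 3 were above it. TCF7 (chr5:133450372-133487556) was at 3.00, 2.92 and 2.18 CPM in iLuc, 6.41, 5.60 and 11.5 in iEF, 4.82, 3.01 and 3.17 in WT-EF, 4.48, 4.17 and 6.61 in Δ22 and 3.48, 2.69 and 4.76 in DAF. The iLuc, WT-EF and DAF libraries of TCF7 were all below iEF. The pair thus moved in opposite directions with the wildtype and DAF cDNAs.

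LEF1 was 2.25-fold higher in WT-EF than in iEF (log2 1.17 ± 0.38, adjusted p = 0.0322) and 2.94-fold higher in DAF (log2 1.55 ± 0.39, adjusted p = 0.0170), and the iLuc difference of 0.90 ± 0.39 had an adjusted p of 0.0797. These values rested on few libraries. The WT-EF call was lost without WT-EF replicate 3 (adjusted p = 0.168), iEF replicate 1 (0.0663), 2 (0.124) or 3 (0.0725), and without the replicate block (0.0940). The DAF call was lost without DAF replicate 2 (adjusted p = 0.122) or 3 (0.0821), iEF replicate 2 (0.0858) or 3 (0.0523), and without the block (0.0508). The iLuc difference passed without iLuc replicate 3 (adjusted p = 0.0151) or DAF replicate 1 (0.0438). DAF and Δ22 differed by 1.34 ± 0.38 with an adjusted p of 0.126, which was 0.0242 without DAF replicate 1. LEF1-AS1 on the opposite strand was at most at 0.346 CPM.

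TCF7 was 2.77-fold lower in iLuc than in iEF (log2 -1.47 ± 0.27, adjusted p = 0.000397), 2.07-fold lower in WT-EF (log2 -1.05 ± 0.26, adjusted p = 0.00658) and 2.13-fold lower in DAF (log2 -1.09 ± 0.26, adjusted p = 0.0141). The DAF call was lost without DAF replicate 1 (adjusted p = 0.0611), DAF replicate 2 (0.0774), iEF replicate 3 (0.109) or replicate 1 (0.0735) or 2 (0.129) of all conditions. The Δ22 difference was -0.60 ± 0.26 (adjusted p = 0.308). WT-EF and DAF differed by 0.04 ± 0.27 (adjusted p = 0.939). TCF7 overlaps SKP1 on the opposite strand, which was at 135.1 to 169.9 CPM.

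AXIN2 and NKD1 encode feedback inhibitors, AXIN2 as a scaffold of the destruction complex and NKD1 as a partner of Dishevelled. AXIN2 (chr17:63524681-63557766) is widely used as a readout of canonical signalling. It was at 3.91, 4.82 and 4.33 CPM in iLuc, 2.94, 3.31 and 4.19 in iEF, 1.88, 2.83 and 3.97 in WT-EF, 1.35, 1.98 and 3.29 in Δ22 and 1.12, 1.64 and 2.25 in DAF. Replicate 3 was the highest library in iEF, WT-EF, Δ22 and DAF, and the DAF libraries were all below iEF. NKD1 (chr16:50582307-50683160) had between 6 and 27 counts in every library, 0.176 to 0.785 CPM. None of its 7 differences passed the test, and at these counts its SE against iEF was 0.48 to 0.52 on the log2 scale.

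AXIN2 was 2.13-fold lower in DAF than in iEF (log2 -1.09 ± 0.22, adjusted p = 0.00457). Without the replicate block the adjusted p was 0.0660, and it was 0.0842 and 0.0862 without replicate 1 or 2 of all conditions. The differences of iLuc (log2 0.35 ± 0.20, adjusted p = 0.192) and WT-EF (log2 -0.31 ± 0.21, adjusted p = 0.308) from iEF had opposite signs and did not pass, though that of iLuc passed without iLuc replicate 3 (adjusted p = 0.0402). AXIN2 was 1.58-fold lower in WT-EF than in iLuc (log2 -0.66 ± 0.21, adjusted p = 0.0358) and 1.72-fold higher in WT-EF than in DAF (log2 0.78 ± 0.22, adjusted p = 0.0133). The call against iLuc was lost without any of the DAF libraries (adjusted p = 0.0503 to 0.0530), WT-EF replicate 1 (0.153) or 2 (0.101), iLuc replicate 1 (0.169) or 2 (0.146), and without the block (0.255). The call against DAF was lost without DAF replicate 1 (adjusted p = 0.0594), WT-EF replicate 3 (0.0580) and the block (0.101). In Δ22 the difference from iEF was -0.72 ± 0.21 (adjusted p = 0.117), which DESeq2 called (adjusted p = 0.0430) and which passed without replicate 3 of all conditions (adjusted p = 0.0479).

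Counted over the 10 genes, iLuc cells had 2 higher and 4 lower than iEF, where 19.5% of all 28793 genes tested were higher and 22.1% lower. WT-EF cells had 2 higher and 5 lower, against 12.9% and 17% of all genes. DAF cells had 2 higher and 5 lower, against 5% and 6.19% of all genes. The 4 comparisons share the iEF libraries. In the edgeR fit reported no member was called in Δ22 cells, where 0.472% of all genes were higher and 0.83% lower. Of the 10, 6 had an unadjusted p under 0.05 there (DKK2, DKK3, SFRP1, LGR5, TCF7 and AXIN2), as did 13.6% of all genes, and DESeq2 called 1, AXIN2. The median log2 fold change of the 10 was -0.23 in iLuc, -0.72 in WT-EF, -0.37 in Δ22 and -1.03 in DAF, beside medians over all genes of 0.04, -0.01, 0.01 and 0.00.

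The direct comparisons show where the cDNAs left a gene apart from iLuc or from each other. WT-EF cells had 2 of the 10 genes above iLuc (DKK1 and DKK3) and 3 below it (WNT5A, LGR5 and AXIN2), where 10.7% of all genes were higher and 9.03% lower. Against DAF, WT-EF cells had 2 higher (DKK2 and AXIN2) and 3 lower (DKK1, DKK3 and SFRP1), where 12.4% and 16.1% of all genes were. Against Δ22, DAF cells had 2 lower (DKK3 and SFRP1), where 0.379% of all genes were lower, and 0 higher, where 0.948% were. In that comparison 4 of the 10 and 10.2% of all genes had an unadjusted p under 0.05, and DESeq2 called LEF1 higher (adjusted p = 0.0224).

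The wider pathway was read from 8 lists of 103 genes, of which 93 passed the filter on low counts and 83 of these were not among the 10. In iLuc cells 23 of the 93 were higher than iEF and 39 lower, in WT-EF 18 and 35, and in DAF 8 and 17. Over all genes tested, 19.5% were higher and 22.1% lower in iLuc, 12.9% and 17% in WT-EF and 5% and 6.19% in DAF. The same shares stand beside the counts of each list below. The median log2 fold changes of the 93 were -0.28, -0.16 and -0.09, beside 0.04, -0.01 and 0.00 over all genes. In Δ22 cells 1 was higher and 1 lower, against 0.472% and 0.83% of all genes. These were FZD8, at 45.3 ± 5.50 CPM in Δ22 and 31.9 ± 2.46 in iEF (SD, n = 3; log2 0.50 ± 0.09, adjusted p = 0.0122), and FZD7, at 34.2 ± 1.41 and 56.9 ± 4.98 (log2 -0.73 ± 0.11, adjusted p = 0.00634). FZD8 was named after its values were seen, outside the rule for named genes. Its call was lost without Δ22 replicate 2 (adjusted p = 0.0993) or 3 (0.0748), any iEF library (0.0538 to 0.0615) and the replicate block (0.108), and that of FZD7 without Δ22 replicate 2 (0.0604).

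**Figure D3:**
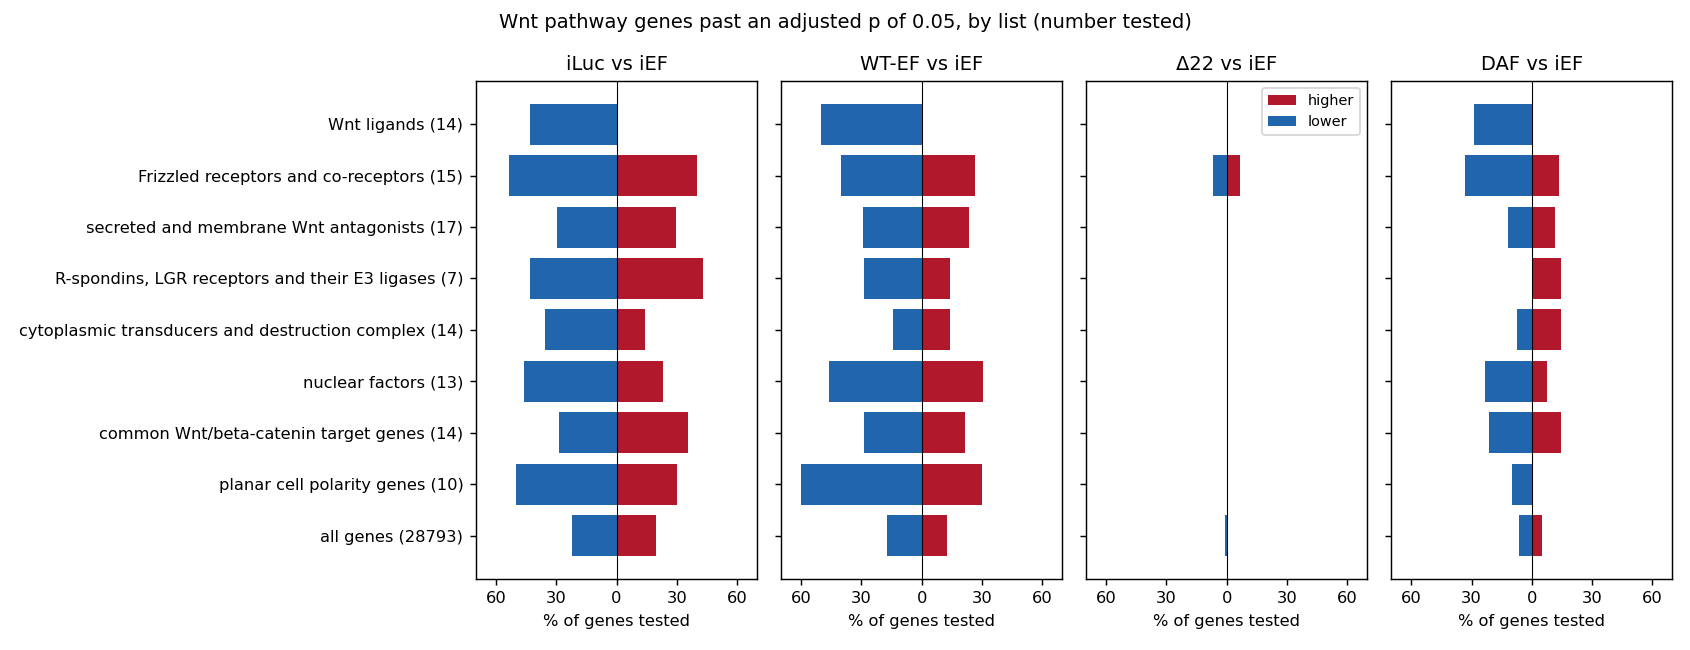
Percent of the genes tested in each Wnt pathway list, and among all genes, that were higher (red, to the right) or lower (blue, to the left) than iEF at an adjusted p of 0.05; the number tested is in parentheses. No Wnt ligand is higher in any of the 4 conditions, and of the 8 lists Δ22 has calls only in that of the Frizzled receptors.

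Of 14 Wnt ligands tested, 6 were lower and 0 higher in iLuc, 7 and 0 in WT-EF and 4 and 0 in DAF, with a median of -1.44, -1.18 and -0.67. WNT5B, a relative of WNT5A, fell from 29.4 ± 9.43 CPM in iEF to 0.783 ± 0.092 in iLuc (log2 -5.19 ± 0.25, adjusted p = 1.7e-09) and 2.86 ± 0.82 in WT-EF (log2 -3.34 ± 0.21, adjusted p = 1.04e-07; SD, n = 3 each). With limma on the ComBat-adjusted values these differences were -3.19 and -2.41. WNT5A did not pass the test in iLuc cells. WNT3, a canonical ligand, was lower in DAF by a log2 fold change of -1.0 ± 0.18 (adjusted p = 0.00234), at 2.18 ± 0.21 CPM against 4.37 ± 0.80 in iEF. That adjusted p was 0.0560 without replicate 2 of all conditions. WNT3 was also lower in iLuc (log2 -1.24 ± 0.18, adjusted p = 5.2e-05) and WT-EF (-1.43 ± 0.18, adjusted p = 2.9e-05).

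Among 15 Frizzled receptors and co-receptors, 6 were higher and 8 lower in iLuc, 4 and 6 in WT-EF and 2 and 5 in DAF. The co-receptor LRP6, to which DKK1 and DKK2 bind, was at 375.5 ± 22.1 CPM in iLuc and 154.2 ± 26.1 in iEF (log2 1.29 ± 0.12, adjusted p = 5.3e-07). LRP6 was also called higher in WT-EF (0.95). FZD7 was lower in iLuc (log2 -1.78 ± 0.11, adjusted p = 2e-08), WT-EF (-1.44), DAF (-1.01) and Δ22 (-0.73). FZD6 was lower in WT-EF (-1.52 ± 0.15, adjusted p = 3.4e-06) and iLuc (-1.35). FZD2 was lower in DAF (-1.25 ± 0.21, adjusted p = 0.00169), iLuc (-0.95) and WT-EF (-0.77). FZD1 was higher in WT-EF (1.04 ± 0.12, adjusted p = 1.27e-05), iLuc (1.16) and DAF (0.46). Several fits lost the FZD2 call in WT-EF (adjusted p = 0.0803 without iEF replicate 3). The same held for the FZD1 call in DAF (0.0748 without DAF replicate 1).

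Other antagonists also went both ways. Of 17 secreted and membrane antagonists tested, 5 were higher and 5 lower in iLuc, 4 and 5 in WT-EF and 2 and 2 in DAF. CER1, a secreted inhibitor of BMP, Nodal and Wnt ligands, was at 41.9 ± 4.95 CPM in iLuc, 16.3 ± 5.27 in WT-EF and 1.59 ± 1.12 in iEF (log2 4.93 ± 0.34 and 3.46 ± 0.33, adjusted p = 4.2e-08 and 2.3e-06). APCDD1, a membrane inhibitor and target gene, was at 230.1 ± 8.10 CPM in iLuc, 292.7 ± 53.3 in WT-EF, 186.2 ± 72.1 in DAF and 30.9 ± 12.4 in iEF. Its log2 fold change against iEF was 2.98 ± 0.26, 3.29 ± 0.26 and 2.58 ± 0.25 in that order (adjusted p = 3e-07, 4.8e-07 and 2.8e-05). APCDD1 thus had a rise in DAF cells, as DKK2 did at a smaller size, and CER1 was at 1.26 ± 0.79 CPM in DAF, within the iEF range or below it. With limma on the ComBat-adjusted values CER1 differed by 3.82 in iLuc and 2.57 in WT-EF.

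In the R-spondin and LGR list of 7 genes tested, 3 were higher and 3 lower in iLuc, 1 and 2 in WT-EF and 1 and 0 in DAF. LGR4, the relative of LGR5 and likewise an R-spondin receptor, was at 54.4 ± 8.60 CPM in iLuc and 356.8 ± 26.4 in iEF (log2 -2.72 ± 0.17, adjusted p = 1.7e-08), the opposite direction to LGR5, and by -2.05 with limma on the ComBat-adjusted values. The ligand RSPO3 was lower in WT-EF, at 1.61 ± 1.04 CPM against 12.9 ± 4.27 (log2 -2.93 ± 0.42, adjusted p = 9.4e-05), with -3.58 without WT-EF replicate 2 and -1.88 with limma. RSPO2 was higher in DAF, at 21.3 ± 4.01 CPM against 10.5 ± 2.18 (log2 1.05 ± 0.29, adjusted p = 0.0276). The RSPO2 call in DAF was lost without DAF replicate 2 (adjusted p = 0.106) or 3 (0.146) or any iEF library (0.0634 to 0.103). In iLuc RSPO2 was lower than in iEF, at 4.47 ± 1.29 CPM (log2 -1.23 ± 0.30, adjusted p = 0.00368). DAF thus differed from iEF in the direction opposite to iLuc. Without replicate 2 of all conditions the adjusted p in iLuc was 0.0523. In WT-EF RSPO2 was at 11.4 ± 1.44 CPM.

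Of 14 cytoplasmic genes tested, 2 were higher and 5 lower in iLuc, 2 and 2 in WT-EF and 2 and 1 in DAF. NKD2, the relative of NKD1, was at 4.29 ± 0.58 CPM in iLuc, 3.32 ± 1.30 in WT-EF, 0.951 ± 0.40 in DAF and 0.375 ± 0.060 in iEF, and it passed in all 3 comparisons with iEF (log2 3.53 ± 0.35, 3.11 ± 0.35 and 1.31 ± 0.38, adjusted p = 1.24e-06, 1.03e-05 and 0.0364). Its DAF call was lost without DAF replicate 2 (adjusted p = 0.172) or 3 (0.136) or any iEF library (0.0707 to 0.157). With limma the 3 differences were 2.26, 1.92 and 0.62, and the last had an adjusted p of 0.0538.

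Of 13 nuclear genes tested, 3 were higher and 6 lower in iLuc, 4 and 6 in WT-EF and 1 and 3 in DAF. TLE2, a co-repressor that binds TCF/LEF proteins, was higher in iLuc (log2 3.26 ± 0.48, adjusted p = 5.6e-05) and BCL9L, a co-activator of beta-catenin, was lower (log2 -1.76 ± 0.14, adjusted p = 1.35e-07). TLE2 was also called higher in WT-EF (log2 1.43 ± 0.50, adjusted p = 0.0415) on the strength of replicate 3, at 4.07 CPM beside 0.692 and 1.06. Without that library the difference was 0.43 (adjusted p = 0.437), and the call was also lost without DAF replicate 1 or 2, Δ22 replicate 1 or 2, iLuc replicate 2 or iEF replicate 1 or 3 (adjusted p = 0.0504 to 0.247), without the block (0.0535) and with limma (0.0588), where the iLuc difference was 2.40. TLE1 was lower in DAF (log2 -1.06 ± 0.31, adjusted p = 0.0395), a call lost without any DAF or iEF library, WT-EF replicate 2, Δ22 replicate 1 or 2 or iLuc replicate 2 (adjusted p = 0.0509 to 0.202), without the block (0.111) and with limma (0.0882).

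Of 10 planar cell polarity genes, which belong to a branch of Wnt signalling without beta-catenin, 3 were higher and 5 lower in iLuc, 3 and 6 in WT-EF and 0 and 1 in DAF. PRICKLE2 was at 0.135 ± 0.11 CPM in iLuc, which were 4, 9 and 1 counts, 1.32 ± 0.50 in WT-EF, 4.97 ± 0.88 in DAF and 10.8 ± 0.45 in iEF. Its log2 fold change against iEF was -6.30 ± 0.34 in iLuc, -3.08 ± 0.25 in WT-EF and -1.15 ± 0.23 in DAF (adjusted p = 4.4e-09, 6.8e-07 and 0.0048), with -7.11 in iLuc without iLuc replicate 2, -3.10 in iLuc and -2.13 in WT-EF with limma on the ComBat-adjusted values, and an adjusted p of 0.0511 in DAF without replicate 2 of all conditions. PRICKLE2 therefore had the order of levels that DKK3 had. CELSR2 was higher in iLuc (log2 2.16 ± 0.24, adjusted p = 3.8e-06) and WT-EF (1.38 ± 0.24, adjusted p = 0.000415).

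Of 14 commonly cited canonical target genes tested, 5 were higher and 4 lower in iLuc, 3 and 4 in WT-EF and 2 and 3 in DAF. Their median log2 fold change was 0.15 in iLuc, -0.30 in WT-EF and -0.31 in DAF. Beta-catenin itself (CTNNB1) and the targets MYC and CCND1 were added after their values were seen. CTNNB1 was at 210.2 ± 11.3 CPM in iLuc, 197.8 ± 2.34 in iEF, 200.9 ± 25.5 in WT-EF, 190.8 ± 10.9 in Δ22 and 170.1 ± 5.97 in DAF, and no difference from iEF passed the test in edgeR. With limma on the ComBat-adjusted values CTNNB1 was called higher in iLuc (log2 0.26, adjusted p = 0.0061) and WT-EF (log2 0.21, adjusted p = 0.0288). MYC was higher in iLuc (log2 0.64 ± 0.14, adjusted p = 0.00213). CCND1 differed from iEF by between -0.17 and 0.20 in the 4 conditions in edgeR, with adjusted p of 0.245 or more. With limma both CCND1 (log2 0.39, adjusted p = 0.0106) and MYC (log2 0.49, adjusted p = 0.00666) were called higher in WT-EF. MYC was at 140.2 ± 10.4 CPM in WT-EF and 110.7 ± 0.82 in iEF, and did not pass in the edgeR fit reported. It passed in edgeR with a mean of at least 10 counts (adjusted p = 0.0464), no filter on low counts (0.0199) or only the 6 libraries compared (0.0398). RNA levels of CTNNB1 do not report the amount or place of its protein.

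By the range of condition means of log2 CPM with a prior count of 2, the widest of the 10 were DKK3 (6.86), DKK1 (6.52) and DKK2 (4.78), with SFRP1 close behind (4.62). The prior count narrows the range of genes with low counts such as SFRP1, so the order of DKK2 and SFRP1 is not firm. Over 13178 genes with a mean of at least 50 counts and the 5 condition means, the patterns nearest to DKK3 were those of HTRA1 (root mean square difference of 0.080 in log2 CPM), a secreted serine protease, and LOX (0.127), which cross-links collagen. Those nearest to DKK1 were TDO2 (0.183), an enzyme of tryptophan breakdown, and MICAL2 (0.257), an enzyme that acts on actin. Those nearest to DKK2 were LIPI (0.245), a lipase, and SPHKAP (0.296), an anchoring protein for protein kinase A. Likeness was measured on the same 15 libraries as the patterns themselves and is a description.

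**Figure D4:**
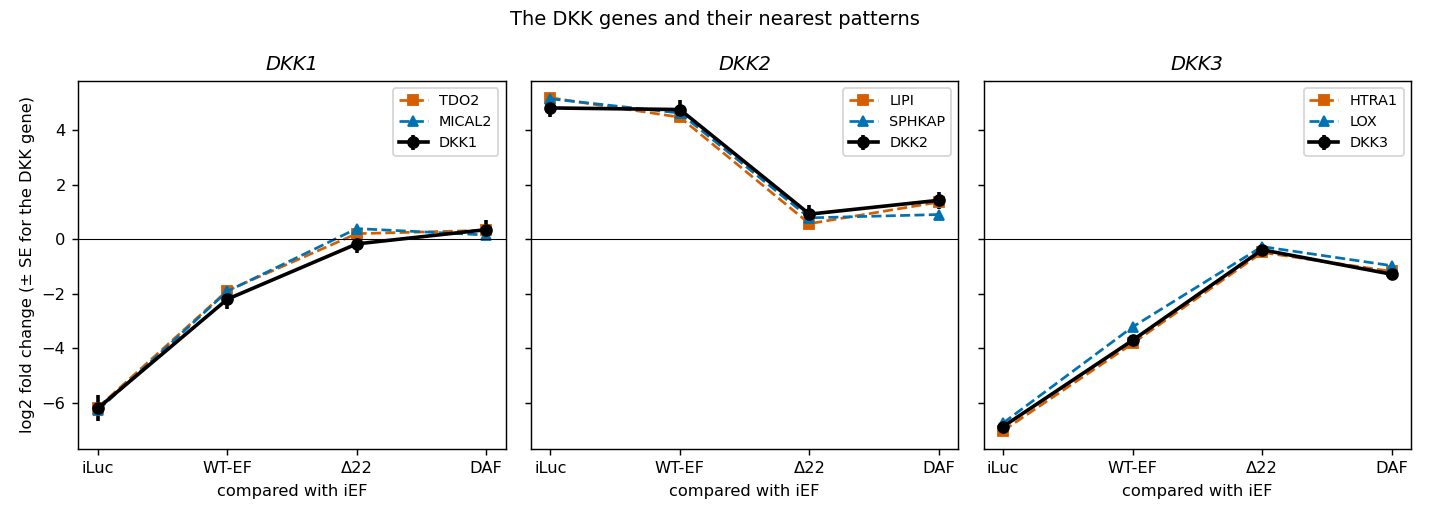
Log2 fold change against iEF of DKK1, DKK2 and DKK3 (black, with SE) and of the genes with the nearest patterns (dashed), in iLuc, WT-EF, Δ22 and DAF. DKK1 and DKK3 share a deep minimum in iLuc, but DKK1 returns to about the iEF level in DAF while DKK3 stays at -1.28, and DKK2 is above 4 in iLuc and WT-EF only.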

How the data were processed

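RNA-seq libraries of A673 cells were analysed as 3 libraries for each of 5 conditions, with condition and replicate number taken from the sample labels. According to the study's methods, the authors mapped reads with STAR (2.5.1b in the submitters' processing notes) to hg19, and htseq-count, set to intersection-strict, assigned them to genes. The deposited counts are whole numbers, not normalized. The annotation release and strand setting are not given in the sources used here. The deposited ComBat-adjusted values, which the authors derived from these counts to remove differences between sets of replicates, are decimal values that were used only in an alternative. A deposited table of the authors' own fold changes and adjusted p-values was not used, and neither were 3 columns of other samples.

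Genes with a mean count of 1 or more were retained (28793 of 57820). After TMM scaling, edgeR 4.0.16 (R 4.3.3) fitted a quasi-likelihood model with condition and replicate number as terms, to the 15 libraries together. Benjamini-Hochberg adjusted p-values run over all genes tested, and a gene was called at an adjusted p under 0.05. Standard errors (SE) are the log2 fold change divided by the root of F. CPM values are counts scaled to a common library size and use TMM-scaled library sizes, so that depth enters each value. The block follows the study's batch adjustment of each set of replicates. Deviations from condition means correlated at a median of 0.147 (-0.117 to 0.641) over 30 pairs of libraries with the same number and -0.0797 over 60 pairs with different numbers, across 17653 genes. DESeq2 1.42.0, limma 3.58.1 on the ComBat-adjusted values, other filters, other scaling, a fit without the block and fits without each library were alternatives. The scripts were tested on simulated data.

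The 10 genes, the 8 Wnt pathway lists and the tests were chosen with earlier results of these data known. Named genes outside the 10 were FLI1 and, of each list and comparison with iEF, the gene with the largest increase and the largest decrease among those past both an adjusted p of 0.05 and a log2 fold change of 1 with a mean of at least 50 counts; exceptions are stated. A gene named for a comparison may have been called in others as well. The pattern most like that of a gene was the smallest root mean square difference of the 5 condition means of centred log2 CPM.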

Additional observations from a re-analysis of the deposited data

How the results depend on the processing

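No log2 fold change of a called gene changed sign under any alternative run. Over the 10 genes and 7 comparisons, 1638 values under an alternative kept their call, 73 lost it and 39 gained it. Over the other named genes in the comparisons with iEF, whose alternatives were added after seeing the data, 2092 kept it, 87 lost it and 21 gained it. With 1 library left out, the remaining pair of its condition was assumed to vary like the other groups.

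Counts that moved by over 1.5 times were as follows, with the range over fits that left out replicates. For iLuc against iEF, the 2 genes higher of the 10 became 1 to 4. For WT-EF they became 1 to 2. For Δ22, genes lower were 0 to 2, and pathway genes were 0 to 1 higher and 0 to 4 lower. For DAF, genes higher were 0 to 3 and lower 2 to 6, and pathway genes 2 to 12 higher and 4 to 19 lower. For WT-EF against iLuc, genes lower were 1 to 3, and against DAF genes higher were 1 to 2. For DAF against Δ22, genes higher were 0 to 1 and lower 1 to 2.

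Without the replicate block, genes higher were 1 in iLuc, 1 in WT-EF and 0 in DAF, pathway genes were 0 higher in Δ22 and 10 lower in DAF, and WT-EF had 1 lower against iLuc and 1 higher against DAF. With no filter on low counts, Δ22 had 1 higher, 1 lower, 3 pathway genes higher and 6 lower, and DAF had 3 higher than Δ22. DESeq2 gave 1 lower and 5 pathway genes lower in Δ22 and 1 higher in DAF than Δ22. With only the 6 libraries compared, pathway genes lower in Δ22 were 2, genes lower in WT-EF than iLuc 1, and DAF had 3 higher and 4 lower than Δ22. With limma on the ComBat-adjusted values, pathway genes higher were 29 in WT-EF and 2 in Δ22, and DAF had 1 lower than Δ22. The cause was not tested.

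FLI1 in WT-EF against iEF passed with DESeq2 (log2 0.32), with its size factors (0.31), with limma (0.41) and with a mean of at least 10 counts (0.33), and over fits that left out replicates it was 0.24 to 0.32. In Δ22 it was 1.01 to 1.20 over such fits, and its call was lost without replicate 2 of all conditions. Counts were low for NKD1, with 6 to 27 per library, and for SFRP1 in iLuc and WT-EF, with 13 to 29.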
